A study of Drosophila melanogaster with 91 samples.

Results

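The nuclear-encoded subunits of mitochondrial complex I were followed through the embryonic development of the fruit fly Drosophila melanogaster. The members were chosen by name: every gene of the count table whose FlyBase symbol starts with ND-, which gave 39 of 15682 gene identifiers. Of these, 33 carry the name of a subunit and 6 are paralogs named after another member. The gene name table lists 40 ND- symbols, and the remaining one, ND-30, was not analysed here.

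Each of the 91 samples was a single embryo, and labelled times ran in steps of 15 min from -15 to 1335 min, counted from cellularization, when the syncytial embryo divides into separate cells. The flies laid on plates in cages, and the embryos were stripped of the chorion, kept in an incubator on a cover slip, watched under a microscope to note cellularization, and frozen at their time; the labels give no genotype, strain or treatment. RNA of each whole embryo was read by CEL-Seq, a multiplexed method that counts reads from the 3′ end of polyadenylated transcripts. Embryos were grouped by labelled time into 7 consecutive windows of 13: window 1 (-15 to 165 min), window 2 (180 to 360 min), window 3 (375 to 555 min), window 4 (570 to 750 min), window 5 (765 to 945 min), window 6 (960 to 1140 min) and window 7 (1155 to 1335 min).

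The unit of level is CPM, a gene's count divided by the library's total over genes, times 1000000. The median library held 1644069 gene counts, and 6 of the 91 fell under 548023, the median divided by 3. The library at 120 min held only 3662 gene counts beside 96.0% spike-ins, the synthetic RNAs added to each sample. One count there is worth 273 CPM, and its 31 member counts fell on 6 members, so values of window 1 are given over the other 12 embryos unless n = 13 is stated. The deposited sample sheet places the libraries in 4 pools, which run in the order of the labelled times. These were pool 4 (-15 to 315 min), pool 5 (330 to 645 min), pool 6 (660 to 990 min) and pool 7 (1005 to 1335 min). Pools 4 and 5 shared one sequencing lane and pools 6 and 7 another, so a change across a pool edge cannot be told apart from a change with time. In whole-embryo RNA, fewer cells of a kind and less RNA per cell cannot be told apart either. As markers of stage, the summed level of 5 of 6 listed maternal egg genes had a median of 268 CPM in window 1 and 3.17 CPM in window 7, and that of 11 of 12 muscle genes 6.56 and 28458 CPM (n = 13 in each window).

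Complex I is the first enzyme of the respiratory chain. It takes electrons from NADH, passes them along flavin and iron-sulfur clusters in an arm that projects into the mitochondrial matrix, and hands them to ubiquinone, while the arm buried in the inner membrane pumps protons. The matrix arm has an N module, where NADH is oxidised, and a Q module, where ubiquinone is reduced. The core of the membrane arm is encoded by the mitochondrial genome, and nuclear accessory subunits surround it. Roles below are those of the bovine and human homologs.

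The 39 members together took 0.427% of all gene counts, and their levels were very uneven. Over the 32 members that passed the filter on low counts, the mean over 91 embryos had a median of 94.6 CPM and a minimum of 31.4 CPM, and the highest 3 members held 32.6% of the summed level. CEL-Seq reads one end of each transcript, so these counts were not divided by transcript length, and the comparisons of level between genes are on that scale.

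The Q module held the highest member. ND-23 (FBgn0017567), the homolog of NDUFS8 and a carrier of iron-sulfur clusters close to the ubiquinone site, had 660 ± 280 CPM over all embryos (SD, n = 91), and without the library at 120 min its lowest, median and highest embryos stood at 178, 644 and 1074 CPM. ND-39 (FBgn0037001), the homolog of the accessory subunit NDUFA9, had 280 ± 167 CPM (n = 91). ND-20 and ND-13B, the homologs of NDUFS7 and NDUFA5, lay far lower, at 35.5 and 35.2 CPM. Members of this single module thus spanned nearly the whole range of levels seen among the 32.

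In the N module 8 of 9 members passed the filter, at means from 31.4 to 131 CPM. The highest was ND-B17.2, the homolog of the accessory subunit NDUFA12, and the lowest ND-18, the homolog of NDUFS4. The 3 catalytic members of the module lay close together, with ND-51 (NDUFV1, which binds NADH and flavin) at 62.9 CPM, ND-24 (NDUFV2) at 62.3 CPM and ND-75 (NDUFS1) at 53.3 CPM. The exception was ND-B8 (FBgn0040705), the homolog of NDUFA2, which had 40 counts in all, spread over 11 embryos.

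In the membrane arm every listed member was measured above the filter. The 7 proximal members had means from 48.8 CPM for ND-MWFE (NDUFA1) to 231 CPM for ND-B14.5B (NDUFC2), and the 10 distal members from 75.1 CPM for ND-B18 (NDUFB7) to 179 CPM for ND-B12 (NDUFB3). ND-MLRQ (FBgn0052230), the homolog of NDUFA4, a protein that in human mitochondria is counted with complex IV, had 357 ± 162 CPM (n = 91). ND-ACP (FBgn0011361), the mitochondrial acyl carrier protein, had 85.9 ± 65.0 CPM in window 1 (SD, n = 12) and 104 ± 54.5 CPM in window 7 (n = 13).

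The paralogs were nearly silent. ND-51L1 had 113 counts over 22 embryos, most of them in windows 2 and 3 (31 and 37 counts), ND-51L2 had 6, ND-20L had 2 and ND-B14.5AL had 1. The other two paralogs, ND-24L among them, had 0, which over all libraries together allows up to 0.0197 CPM (3 counts of the total, counting error only). None of these 6, nor ND-B8, passed the filter, so each test below covers 32 members.

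By the BDGP6 annotation, which is not the build of the counts and is used here only for names, 9 of the 39 members lie on 2L, 9 on X, 8 on 3L, 8 on 2R, 4 on 3R and 1 on chromosome 4. Exons of 18 members overlap another gene, 16 of them on the opposite strand. The strand setting of the counting is not given in the sources used here, so such reads could have been shared or dropped. Among members named below this touches ND-MNLL, whose 720 exonic bases all lie in CG45089 on the same strand. On the opposite strand it touches ND-B22 with CG31855 (227 bases), ND-B16.6 with CG3847 (221 bases) and ND-15 with Pus10 (178 bases). ND-MWFE overlaps TppII there (167 bases) and Nrk on the same strand (128 bases). Smaller overlaps on the opposite strand are those of ND-B18 (91 bases), ND-ASHI (77 bases), ND-SGDH (64 bases), ND-18 with CG12204 (46 bases) and ND-B12 (8 bases). On the same strand, ND-MLRQ shares 12 bases with mir-4942 and ND-15 shares 2 with CG3436. Values of these members are less certain than those of ND-39 or ND-23.

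The members were high in the earliest embryos, low in mid-embryogenesis and high again in many, though not in every one, of the later embryos. The summed level was 4626 ± 834 CPM in window 1 (SD, n = 12), 3592 ± 618 in window 2, 2716 ± 935 in window 3, 3610 ± 1795 in window 4, 4783 ± 1440 in window 5, 3840 ± 2223 in window 6 and 4422 ± 1910 in window 7 (n = 13 each). With the library at 120 min, window 1 stood at 4921 ± 1331 CPM (n = 13). Single embryos ran from 1057 CPM at 1080 min to 7662 CPM at 1230 min, a 7.25-fold range. Window 1 embryos lay between 2363 and 5584 CPM and window 3 embryos between 1464 and 4527 CPM, so even these windows overlapped. The sum over members was chosen with earlier results known and carries no test.

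**Figure D1:**
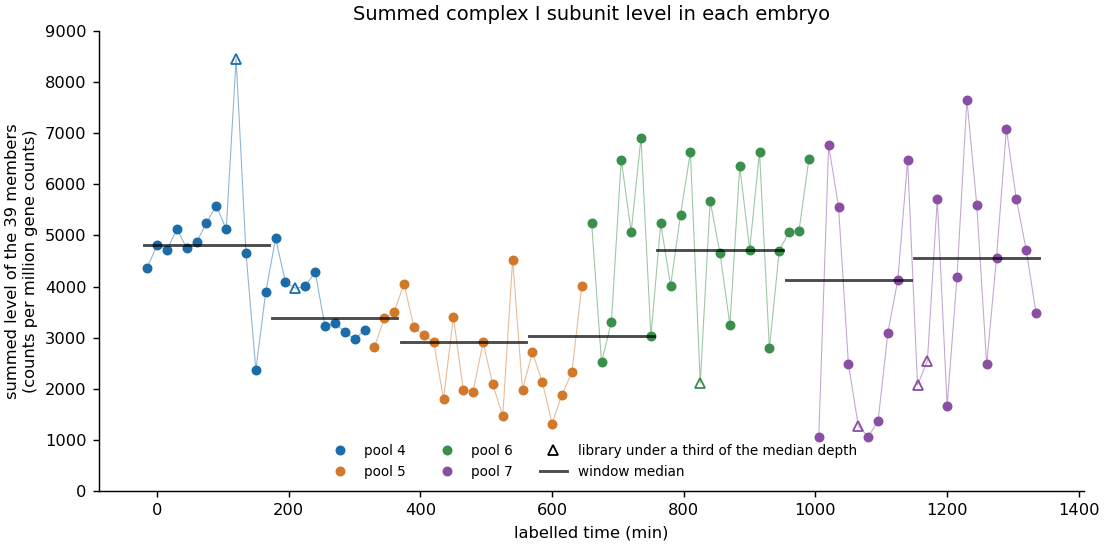
Summed level of the 39 members (CPM, vertical axis) in each of the 91 embryos by labelled time (min), coloured by library pool, with black bars at the window medians and open triangles for the 6 shallow libraries. Embryos of pool 5 lie between 1313 and 4527 CPM, and from 660 min neighbouring embryos differ widely, as 1058 CPM at 1005 min and 6763 CPM at 1020 min.

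The dip in window 3 was shared by most members. Over 90 embryos, 27 of the 32 had their lowest window mean in window 3 (19 by window median), and 14 had their highest in window 5, 12 in window 1, 5 in window 7 and 1 in window 2. Means were lower in window 2 than in window 1 for 28 members, lower in window 3 than in window 2 for 29, higher in window 4 than in window 3 for 31, and higher in window 5 than in window 4 for 32. These are counts of means that share embryos and are not independent of one another.

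The size of the swing differed between members. The ratio of highest to lowest window mean ran from 1.39 to 4.71, with a median of 2.06. It was largest for ND-B22, ND-AGGG and ND-MNLL, the homologs of NDUFB9, NDUFB2 and NDUFB1 in the distal membrane arm, at 4.71, 4.41 and 3.39. It was smallest for ND-23 (1.39), ND-B17.2 (1.47) and ND-ASHI, the homolog of NDUFB8 (1.55). With the library at 120 min included, ND-ACP (4.31 in place of 2.19) and ND-B14.7 (3.96 in place of 1.86) would stand among the largest, through 6 and 7 counts in that library.

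ND-B22 (FBgn0032511) showed the deepest dip. Its lowest, median and highest embryos were at 24.6, 147 and 223 CPM in window 1, at 1.97, 12.5 and 112 CPM in window 3, and at 0, 162 and 239 CPM in window 6. In window 6 single embryos therefore ran from none to near the highest levels of the course, 268 CPM. ND-23 varied far less, with 281, 704 and 903 CPM in window 1, 294, 539 and 746 CPM in window 3 and 298, 648 and 981 CPM in window 7, and its windows overlapped almost fully.

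**Figure D2:**
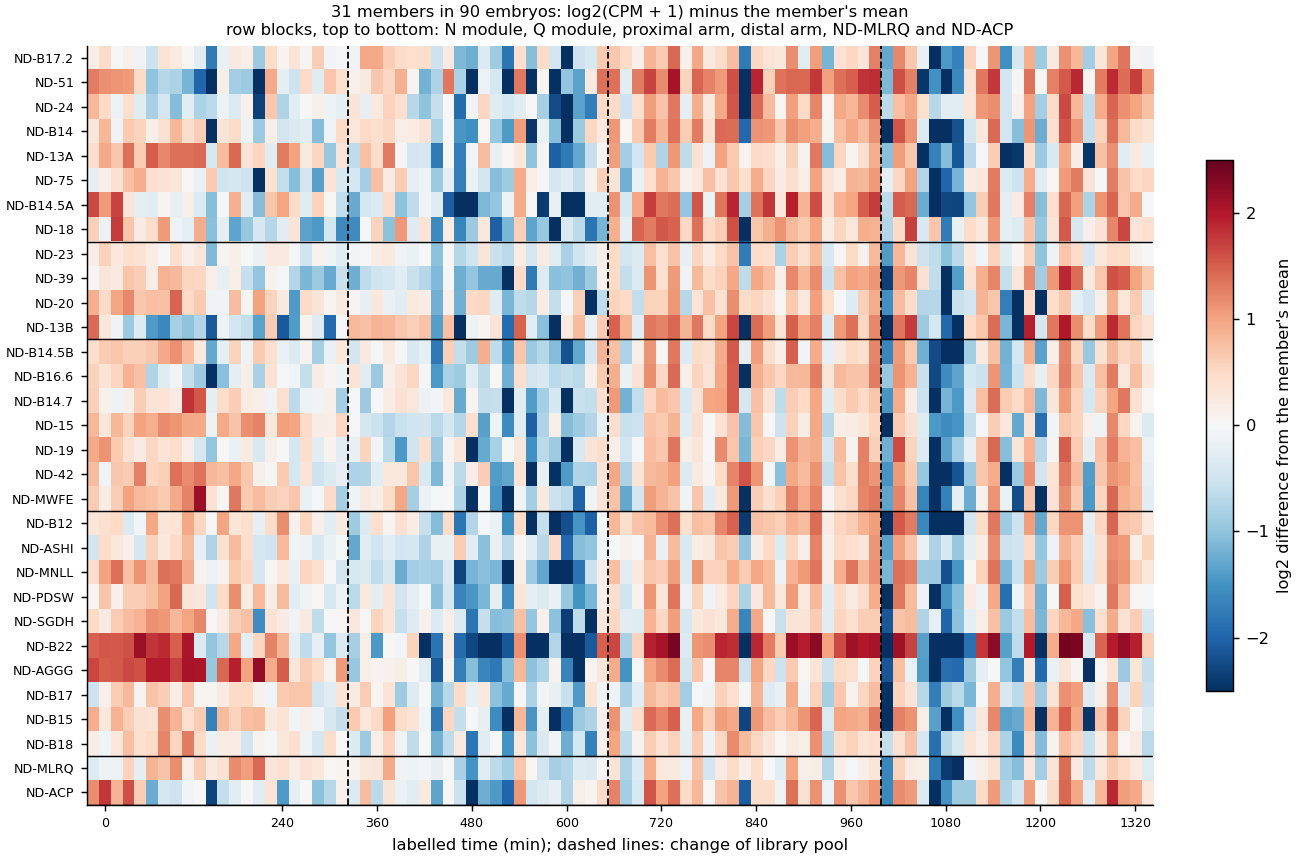
Level of 31 members that passed the filter (rows, ordered by module) in 90 embryos (columns, by labelled time in min; the library at 120 min is left out), as log2(CPM + 1) minus the member's mean. Blue columns, in which nearly every member is low, stand in pool 5 and at single late embryos such as 1005 and 1080 min, and ND-B22 and ND-AGGG have the darkest rows.

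Over the whole course every tested member varied with labelled time: 32 of 32 were called by edgeR's quasi-likelihood F-test on a natural cubic spline of time (5 degrees of freedom, adjusted p under 0.05), where 82.1% of the 8717 genes tested were called. With such a background the count is no result about the members. With the library pool as a covariate 0 of 32 were called, against 36.1% of genes, with 2 members at an unadjusted p under 0.05. The smallest of these was ND-39 (adjusted p = 0.0533), which was the 1 of 32 members called when the library at 120 min was also left out, against 37.8% of genes. Time and pool run together over most of the course, so these fits cannot tell them apart.

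Within pool 4, the embryos from -15 to 315 min, a spline of 3 degrees of freedom called 7 of 32 members, against 45.1% of genes, among them ND-39, ND-B14.7, ND-42, ND-B22, ND-MWFE and ND-MLRQ. Without the library at 120 min it called 12, against 48.8% of genes, adding ND-SGDH, ND-B18, ND-PDSW, ND-MNLL and ND-15. In both fits the share of members called was below that of all genes. Within pools 5, 6 and 7 it called 0 members, with 0 in each at an unadjusted p under 0.05; over all genes it called 0 in pool 5, 5 in pool 6 (0.0584%) and 2 in pool 7 (0.0229%).

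Within window 1, the stretch that holds cellularization, single members moved in both directions. ND-MLRQ lay between 257 and 477 CPM in the 5 embryos up to 45 min and between 364 and 724 CPM in the 7 later ones, with some overlap. ND-ACP lay between 94.8 and 212 CPM in the first 5 and between 11.5 and 60.6 CPM in the later 7, with none. ND-B16.6, the homolog of NDUFA13, lay between 128 and 185 CPM and between 16.4 and 95.9 CPM in the same embryos, again with no overlap. The cut after 45 min is not an edge of the windows or pools. Separation at this cut was not tested or counted over all genes, so the lack of overlap only describes these members. Maternal egg transcripts were also lower later in the same embryos, with a summed 5275 CPM at -15 min and 57.1 CPM at 60 min as examples. Their lowest, median and highest sums in window 1 were 37.4, 268 and 5275 CPM (n = 13). The part of maternal egg transcripts in the members' changes was not tested.

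The linear trend in labelled time called 0 of 32 members over the 13 embryos of window 1 (edgeR, adjusted p under 0.05), against 4.41% of genes called as rising and 17% as falling; 4 members had an unadjusted p under 0.05. The count depended on the library at 120 min and on the test and scaling: DESeq2 called 5 as falling and limma voom 3 as rising and 1 as falling. Each of these was a smaller share than that of all genes under the same test, given in the closing section. Without that library, 4 members rose, against 10.1% of genes, and 2 fell, against 18.9%. The risers per 60 min on the log2 scale were ND-B14.7 by 0.54 ± 0.20 (SE, adjusted p = 0.0488 by edgeR), ND-MLRQ by 0.53 ± 0.17 (adjusted p = 0.0276), ND-42, the homolog of NDUFA10, by 0.51 ± 0.16 (adjusted p = 0.0278) and ND-B12 by 0.44 ± 0.15 (adjusted p = 0.0405). ND-ACP fell by 0.61 ± 0.21 (adjusted p = 0.0383 by edgeR) and ND-B16.6 fell by 0.50 ± 0.17 (adjusted p = 0.0404).

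From window 1 to window 2, 3 of 32 members fell and 0 rose, where 14% of the 5739 genes tested fell and 11.1% rose. The members' median log2 change was -0.21 and that of all genes -0.07. ND-39 had 197, 302 and 419 CPM as its lowest, median and highest values in window 1 and 94.6, 147 and 253 CPM in window 2. Of the 13 embryos of window 2, 10 were below every embryo of window 1, and the other 3 overlapped them. The log2 change was -0.84 ± 0.23 (SE, adjusted p = 0.00738, edgeR).

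ND-B22 went from a median of 147 CPM to one of 42.3 CPM, with window 2 embryos between 17.8 and 119 CPM, all below the mean of window 1 but overlapping its low embryos. Its high values ended within window 1: it was at 209 CPM at 105 min and at 39.2, 24.6 and 30.6 CPM at 135, 150 and 165 min. The log2 change between the windows was -1.05 ± 0.35 (SE, adjusted p = 0.0278, edgeR). ND-18 (FBgn0031021) went from a median of 31.6 to one of 14.6 CPM, with overlapping embryos and a log2 change of -0.88 ± 0.33 (SE, adjusted p = 0.0465, edgeR). Without the library at 120 min ND-39 and ND-B22 were still called (adjusted p = 0.00710 and 0.0324), ND-18 was not (adjusted p = 0.0707), and ND-B17.2 rose by 0.59 ± 0.20 (SE, adjusted p = 0.0306, edgeR), against 12.6% of genes falling and 13.4% rising. Among the 23 embryos of pool 4 alone none of the 32 was called, against 8.97% of genes falling and 8.14% rising (2 members at an unadjusted p under 0.05). Without the library at 120 min, ND-39 was called there (log2 change -0.70, adjusted p = 0.0379, edgeR), against 9.68% falling and 8.71% rising.

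From window 2 to window 3, 3 of 32 members fell and 0 rose, where 1.39% of the 5682 genes tested fell and 2.13% rose. ND-15 (FBgn0031228), the homolog of NDUFS5 in the proximal membrane arm, had 57.6, 117 and 200 CPM in window 2 and 19.9, 57.2 and 113 CPM in window 3. All 13 embryos of window 3 were below the mean of window 2, and 7 were below its lowest embryo. The log2 change was -1.13 ± 0.25 (SE, adjusted p = 0.0120, edgeR).

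ND-AGGG (FBgn0058002) had 34.6, 105 and 319 CPM in window 2 and 15.1, 32.5 and 121 CPM in window 3, again with 7 of 13 embryos below the lowest of window 2. Its log2 change was -1.51 ± 0.34 (SE, adjusted p = 0.0130, edgeR), the largest among the members. ND-MNLL (FBgn0029971) had 70.9, 113 and 174 CPM in window 2 and 11.5, 57.7 and 124 CPM in window 3, with 10 of 13 embryos below the lowest of window 2 and a log2 change of -0.95 ± 0.24 (SE, adjusted p = 0.0259, edgeR). All 13 embryos of window 3 and 3 of window 2 belong to pool 5. Within pool 5 none of the 32 members was called, against 0% of genes, and the log2 changes of these members were -0.14 for ND-15, -0.22 for ND-AGGG and -0.33 for ND-MNLL, so the step and the change of pool cannot be told apart.

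**Figure D3:**
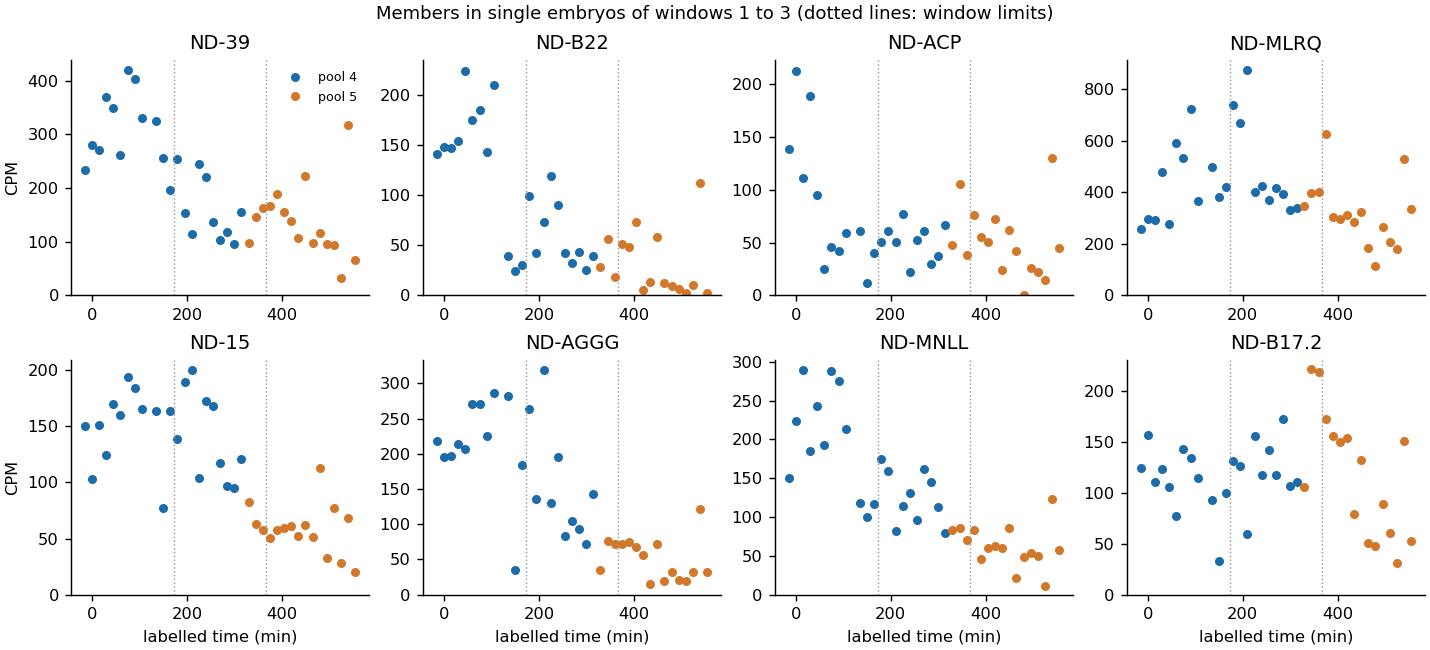
Level (CPM) of 8 members in single embryos of windows 1 to 3 by labelled time (min), coloured by pool, with dotted lines at the window limits and the library at 120 min left out. ND-ACP is at 94.8 CPM or above in the first 5 embryos and at 60.6 CPM or below in the rest of window 1, ND-B22 is low from 135 min, and ND-15 is at 95.3 CPM or above to 315 min in every pool 4 embryo shown but the one at 150 min (77.1 CPM).

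From window 3 on, edgeR called no member between adjacent windows. From window 3 to window 4, 0 of 32 members were called, against 0.252% of genes rising and 0.018% falling. All 32 had a log2 change above 0, with a median of 0.75 against 0.04 for all genes, and 12 had an unadjusted p under 0.05. DESeq2 called 3 as rising (ND-39, ND-B16.6 and ND-ACP), against 2.76% of genes rising and 0.577% falling, and limma voom 0. The edge of pools 5 and 6 falls inside window 4. Among the embryos of pool 5 alone, which holds 6 of window 4, the median change was -0.05.

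From window 4 to window 5, 0 of 32 were called, against 0% of genes rising and 0.0956% falling, with a median change of 0.59 against 0.17 for all genes and 5 members at an unadjusted p under 0.05. Within pool 6, which holds 7 embryos of window 4, the median was 0.17. From window 5 to window 6, 0 were called, against 0.484% of genes rising and 0.0645% falling, with a median of -0.13, 9 members above 0 and 23 below, and 0 at an unadjusted p under 0.05. Within pool 6, which holds only 3 embryos of window 6, this median was 0.45 and all 32 were above 0, with none called (smallest adjusted p = 0.972, edgeR). From window 6 to window 7, 0 were called, against 0% of genes, with a median of 0.31 and 0 members at an unadjusted p under 0.05. That median was 0.04 with spike-in scaling and 0.06 without the libraries in which spike-ins took over 8% of counts. DESeq2 called 0 members in each of these 3 steps, against 1.82%, 3.24% and 0.244% of genes rising and 2.25%, 2.9% and 0.195% falling, and limma voom 0.

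The step that stands out by eye lies at the edge of pools 5 and 6, which is also the edge of the sequencing lanes. The summed level was 2698 ± 883 CPM over the 22 embryos of pool 5 (SD) and 4843 ± 1446 CPM over the 23 of pool 6. The mitochondrially encoded subunits, read in the same libraries, stood at 2591 ± 720 CPM in pool 5 and 3047 ± 669 CPM in pool 6.

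In many embryos members were high or low together. Within a window, the share of the spread of log2(CPM + 1) that was common to all 32 members of an embryo was 32.6% in window 1, 16.8% in window 2, 37.8% in window 3, 54.0% in window 4, 62.5% in window 5, 72.4% in window 6 and 76.5% in window 7, with shallow libraries left out. The same share over all 8717 genes was 14.2%, 3.06%, 7.27%, 15.1%, 0.821%, 7.23% and 4.25% in windows 1 to 7. The all-gene share is lowered by the larger set and by opposite changes that cancel in CPM. It is therefore no matched background for the 32 members. The embryo with the lowest member mean of its window was among the 3 lowest for 28, 16, 22, 27, 30, 32 and 32 members in windows 1 to 7. It was picked by these same members, so agreement is partly built in. In windows 6 and 7 it was the embryo at 1080 min and that at 1200 min. These shares describe the embryos and carry no test.

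Other genes differed in the same late embryos. The lowest sums of window 6 were 1057 CPM at 1080 min, 1058 CPM at 1005 min, 1271 CPM at 1065 min and 1358 CPM at 1095 min, and the lowest of window 7 was 1668 CPM at 1200 min. Mhc, the myosin heavy chain of muscle, was at 32.1, 9.70, 28.1, 95.2 and 55.0 CPM in these libraries, while the highest sums, 6763 CPM at 1020 min and 7662 CPM at 1230 min, came with 2585 and 3459 CPM of Mhc. The summed muscle list (11 of 12 genes in the table) ran from 221 to 48237 CPM in window 6 and from 2437 to 48917 CPM in window 7.

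The same low libraries had 8221, 3639, 7488, 7212 and 4228 CPM of 12 heat shock genes, against 186 CPM at 1020 min and 469 CPM at 1230 min. Spike-ins took 8.34%, 9.82%, 8.61%, 8.79% and 8.39% of their counts, against 3.20% and 4.01%. The part of muscle content, heat shock, RNA amount and embryo age in the low sums was not tested. Without the libraries in which spike-ins took over 8% of counts, the summed level was 5335 ± 1272 CPM in window 6 and 5121 ± 1573 CPM in window 7, and the median member change from window 5 to window 6 turned from -0.13 to 0.32. In that setting, chosen after seeing the data, 4 members rose from window 3 to window 4 (ND-MNLL, ND-39, ND-B16.6 and ND-B17.2), against 3.84% of genes rising and 1.1% falling. The library labelled 825 min had 2107 CPM of members, 25.4 CPM of Mhc and 533 CPM of maternal egg genes, a level of egg transcripts far above its neighbours.

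**Figure D4:**
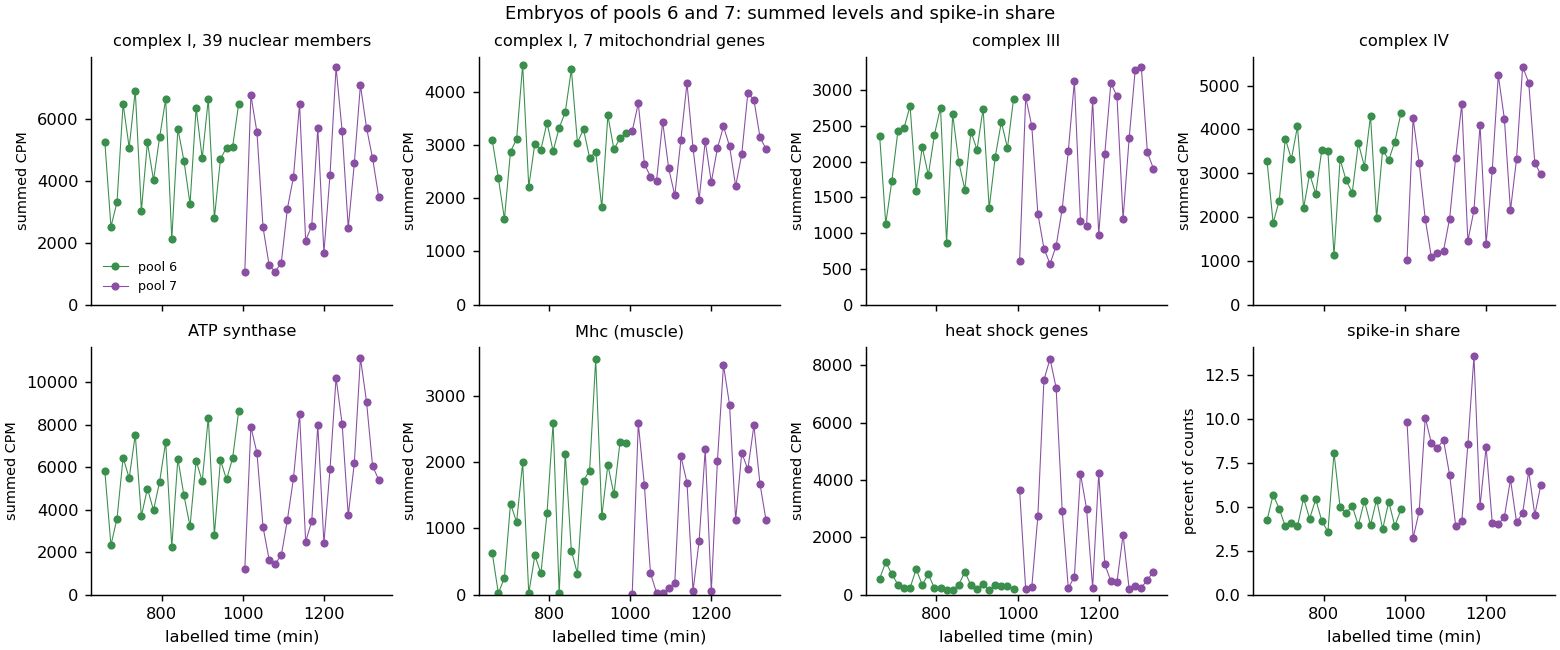
Summed levels (CPM) of 7 gene groups and the spike-in share (in percent) in the 46 embryos of pools 6 and 7 by labelled time (min). Complexes I, III and IV and ATP synthase are low in the same embryos, where Mhc is low, and in pool 7 heat shock genes and spike-ins are high there, while the 7 mitochondrially encoded subunits stay between 1613 and 4511 CPM.

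The modules' shares of the summed level moved by several percentage points between windows. The N module held 10.3% ± 1.8 in window 1 (SD, n = 12) and 13.3% ± 2.03 in window 5 (n = 13), the Q module 25.0% ± 1.96 and 26.6% ± 2.35, the proximal membrane arm 19.5% ± 1.93 and 19.4% ± 1.87, and the distal arm 33.8% ± 3.31 and 30.6% ± 1.75. In window 3 the distal arm stood at 27.1% ± 3.16 and the Q module at 28.8% ± 2.93. The Q module held 24.3% ± 2.93 in window 2 and 31.5% ± 6.38 in window 6, and ND-MLRQ with ND-ACP 14.4% ± 3.27 and 9.59% ± 2.53. No test was run on these shares. The 6 core catalytic members in the table held 21.1% ± 2.88 of the sum in window 1 and 24.7% ± 3.92 in window 7, carried mostly by ND-23.

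The summed level of the 7 complex I subunits of the mitochondrial genome also had its lowest window mean in window 3. In plain CPM this sum was 4225 ± 740 CPM in window 1 (SD, n = 13), 2553 ± 701 CPM in window 3 and 2963 ± 577 CPM in window 7. Taken singly, mt:ND1, mt:ND4L and mt:ND6 had their lowest means in windows 7, 6 and 4. On the TMM-scaled log2 scale of the tests, the median change of the 7 over the successive steps was 0.06, -0.80, 0.26, 0.33, 0.20 and 0.12, so how the late level stands to the early one depends on the scaling. Their course was not tested against that of the nuclear members. The spline called 6 of 7, all but mt:ND6, where 82.1% of all genes were called. With the pool as a covariate it called none of the 7, against 36.1% of genes. From window 2 to window 3, 1 of 7 was called, where 1.39% of genes fell and 2.13% rose. This was mt:ND3, a core subunit of the membrane arm, with a log2 change of -0.96 ± 0.24 (SE, edgeR adjusted p = 0.0259). The other 6 had changes from -0.39 to -0.95 that were not called. This step crosses the edge of pools 4 and 5, so time and pool cannot be told apart in it. CEL-Seq primes on poly(A) tails, so these counts cover only tailed mitochondrial RNA.

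Of 14 complex I assembly factors listed by name, 4 matched a symbol in the table (CIA30, sicily, AIF and Nubpl). The spline in edgeR called 0 of these 4, against 82.1% of all genes. The summed level of the 4 factors was 83.8 ± 51.6 CPM in window 1 and 33.2 ± 18.3 CPM in window 7 (SD, n = 13). AIF, which in mammals helps to import and fold respiratory chain subunits, had 43.0 ± 38.2 and 9.81 ± 6.69 CPM (adjusted p = 0.212, edgeR spline).

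Of the other respiratory complexes the spline, which called 82.1% of all genes, called 4 of 4 tested genes of complex II, 9 of 9 of complex III, 9 of 9 of complex IV and 14 of 14 of ATP synthase. With the pool as a covariate the counts were 0, 1, 3 and 5, where 36.1% of all genes were called. The summed level of each of these complexes also had its lowest window mean in window 3. In the same order these means were 206 ± 123, 1390 ± 443, 2154 ± 537 and 2753 ± 1039 CPM (SD, n = 13). Differences between complexes were not tested.

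Of 9 listed names of regulators of mitochondrial gene expression, 7 matched the table and 5 passed the filter. The spline called 4 of these, where it called 82.1% of all genes. From window 1 to window 2, ewg, the fly relative of the human nuclear respiratory factor NRF-1, rose by 1.63 ± 0.45 (SE, adjusted p = 0.00790, edgeR), and ERR, a nuclear receptor that drives metabolic genes, rose by 1.29 ± 0.44 (adjusted p = 0.0301). TFAM, which packages mitochondrial DNA, fell by 0.95 ± 0.29 (adjusted p = 0.0163, edgeR), and mtTFB2, a mitochondrial transcription factor, fell by 1.57 ± 0.58 (adjusted p = 0.0449). The tested regulator that the spline did not call, srl, the fly homolog of PGC-1, fell within window 1 by 1.44 ± 0.33 per 60 min (adjusted p = 0.00573, edgeR, n = 13), where 17% of genes fell. Levels of these regulators were mostly low beside those of the members, for example 18.3 ± 22.5 CPM for ERR in window 1 and 61.2 ± 31.3 CPM in window 7 (n = 13).

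The late level of the members depended on the scaling. On TMM-scaled counts, which correct for the composition of each library, the summed level was 3516 ± 990 in window 1 and 6527 ± 3487 in window 7 (n = 13), so the late windows stood above the early one. In plain CPM it was 4921 ± 1331 and 4422 ± 1910, and scaled by spike-in counts 5902 ± 2642 and 5032 ± 3159, with the early window above the late one. The low in window 3 was present in all 3 scalings. TMM factors had a median of 1.16 in window 1 and 0.719 in window 7.

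**Figure D5:**
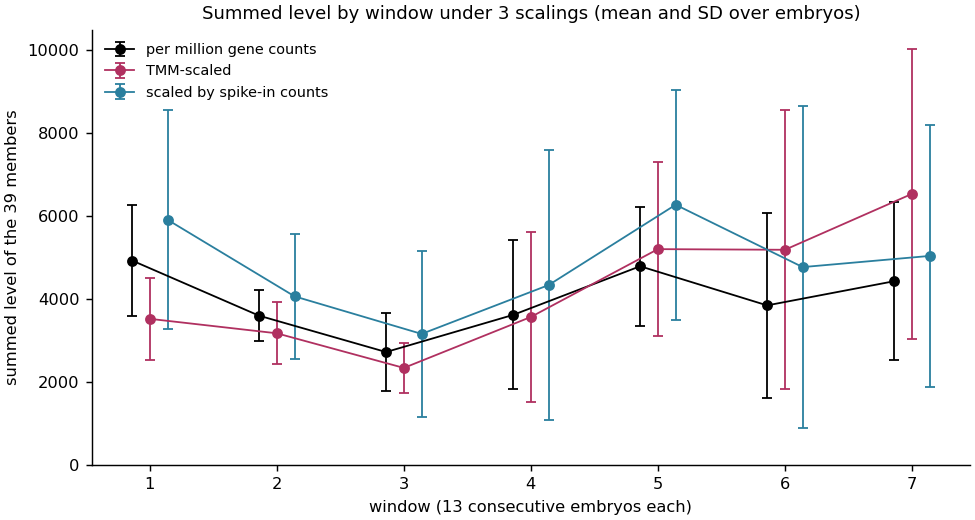
Summed level of the 39 members by window (mean and SD over 13 embryos each) in CPM, TMM-scaled and scaled by spike-in counts. The lowest mean is in window 3 under each scaling, while windows 1 and 7 change places between TMM scaling (3516 and 6527) and the other scalings.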

How the data were processed

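The authors deposited 1 table of raw, unscaled gene counts for the embryos. Per the submitters' processing notes, CASAVA 1.8, Bowtie2 2.1.0 and HTSeq 0.5.4p3 were used with genome build BDGP5. What each did, the strand setting and the handling of molecular identifiers were not stated in the sources at hand. The limit given for 0 counts covers counting error only. A deposited sample sheet gave the pools. Of all counts, 60.7% fell on genes, 3.29% on 92 spike-ins, 16.6% on no feature, 2.44% were ambiguous and 17.1% not aligned; library sizes used genes alone. Depth ran from 3662 to 3308015 gene counts. Symbols matched 15002 of 15682 identifiers.

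Genes were tested with edgeR 4.0.16 (limma 3.58.1, R 4.3.3): quasi-likelihood F-test, TMM, filterByExpr, Benjamini-Hochberg adjustment over all genes tested, called under 0.05. Each window comparison used its own 26 embryos. Standard errors are approximate, the log2 change divided by the square root of F. Alternatives included DESeq2 1.42.0 and limma voom. The fits were tested on simulated data.

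The members and lists were chosen with earlier results of these data known. Any member could be named; values in full were given for the 3 highest, those called, those with the 3 largest and 3 smallest ratios of window means, and those under the filter. No time had more than 1 embryo and the labels do not name parents; p-values therefore reflect only the variation among the embryos sampled, which may be technical in part. Values of 1 member are not reported by name here. Sequences of the members were not analysed here.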

Additional observations from a re-analysis of the deposited data

How the results depend on the processing

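Of the counts of members called and the summed levels recomputed under alternatives, 140 stayed equal or close, 27 came out stronger, 13 weaker and 3 moved. A summed level was taken as close within 1 SD. Many of the 140 are counts of 0 under both settings. Of the calls of single members, 403 held and 233 were lost. Most of these were spline calls, which have no direction and so could not turn. The calls with a direction were those of ND-39, ND-B22, ND-18, ND-15, ND-AGGG and ND-MNLL, and none of these turned its sign. Medians without a test did turn. From window 5 to window 6 the median went from -0.13 to 0.45 within pool 6, which holds only 3 embryos of window 6. From window 3 to window 4 it went from 0.75 to -0.05 within pool 5, which holds 6 embryos of window 4. The spline count of 32 members went to 0 with the pool as a covariate (1 without the library at 120 min, chosen after seeing the data), 7 within pool 4 (12 without that library) and 0 within each of pools 5, 6 and 7. It was 23 with spike-in scaling and 31 with 8 degrees of freedom. At an unadjusted p under 0.05, spike-in scaling had 24 of 32 members and 7627 of 8717 genes. The fit with 8 degrees of freedom had 31 of 32 members and 7256 of 8717 genes. In the trend within window 1, in place of 0 rising and 0 falling, limma voom gave 3 and 1, no filter on low counts 1 rising, leaving out the library at 120 min, the shallow libraries or those over 8% spike-ins 4 and 2, DESeq2 size factors 3 falling, spike-in scaling 2 falling and DESeq2 5 falling, where 30.1%, 30.9% and 34.8% of genes fell (limma voom 9.89% rising, 24% falling). From window 1 to window 2, in place of 3 falling and 0 rising, DESeq2 size factors gave 8 falling (20.3% of genes), DESeq2 11 (26.4%), limma voom 7 (19%) and 1 rising (19.5%), and 6 and 1 rising came without shallow libraries or without those over 8% spike-ins (16% and 10.9% of genes). Leaving out the library at 120 min gave 1 rising, and 0 fell with spike-in scaling, within pool 4 and with all 91 embryos in 1 fit (1 within pool 4 without the library at 120 min). From window 2 to window 3, in place of 3 falling, spike-in scaling and pool 5 alone gave 0 (0.0176% and 0% of genes) and no filter gave 6 (5.12%). From window 3 to window 4, in place of 0, DESeq2 gave 3 rising (2.76%), the fit without libraries over 8% spike-ins 4 (3.84%), the fit of all 91 embryos 1 (11.1%), and no filter 1 rising (11.7%) and 1 falling (2.38%). The summed level moved by more than 1 SD in window 1 (3516, TMM-scaled), window 5 (6265, spike-in counts) and window 7 (6527, TMM-scaled).

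Scaling shifts all genes: from window 1 to window 2 the median of all genes was -0.07 with TMM, -0.30 with DESeq2 size factors and -0.48 with spike-ins, beside member medians of -0.21, -0.42 and -0.60. The cause of these differences was not tested. ND-39 kept its call in 8 of 11 alternatives from window 1 to window 2 (adjusted p from 1.95e-07 to 0.150), ND-B22 in 7 (0.00133 to 0.271) and ND-18 in 6 (0.00337 to 0.154). ND-15 and ND-AGGG kept theirs in 7 of 9 from window 2 to window 3 and ND-MNLL in 6, with adjusted p up to 0.9999 within pool 5. No paired analysis was possible because the replicate numbers follow accession order and pair no embryos across windows. Depth limits the lowest members: at 3 counts, the paralogs cannot be followed in single embryos.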
